A study of Mus musculus with 18 samples.

Results

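Lungs of mouse embryos without Vangl1 were compared with lungs that carried 1 floxed allele of Wnt5a and a mesenchymal Cre. The 2 groups were controls of separate experiments at E12.5 (days post coitus), and each had 3 libraries of bulk RNA from whole lungs, so 6 of the 18 libraries of the series were compared. The libraries were chosen by their labels alone. Vangl1-/- lungs were the controls of Vangl1-/-; Vangl2-/- lungs, and Wnt5af/+; Dermo1Cre lungs were the controls of Wnt5af/f; Dermo1Cre lungs. The third experiment, with Wnt5af/+; Sox9Cre and Wnt5af/f; Sox9Cre lungs at E13.5, is used for levels only. The Vangl1 allele is a gene trap, per the study's methods. Its crosses also carried a floxed Vangl2 allele and Sox2Cre, which the labels of the Vangl1-/- libraries do not list. Dermo1Cre is a Cre placed in the Twist2 gene, so it disrupts 1 Twist2 allele, acts in the mesenchyme and leaves both Wnt5a alleles of the epithelium unrecombined. The floxed Wnt5a line was on a mixed B6;129S background, and the background of the Vangl1 line, the number of embryos in a library and their sex were not given in the sources used here. Loss of Vangl1 therefore cannot be told apart from the deposited table, the Cre, the dose of Wnt5a or the dose of Twist2, all of which differed between the groups together. The genetic background and the dose of Vangl2 may have differed as well, and they cannot be told apart either. Every difference below is given as Vangl1-/- minus Wnt5af/+; Dermo1Cre.

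Planar cell polarity (PCP) is the system by which cells of a sheet align along a common axis. VANGL1 and VANGL2 are among its membrane-spanning proteins and work at cell borders with Frizzled, CELSR, Prickle and Dishevelled proteins. WNT5A is a secreted ligand that signals through ROR and Frizzled receptors to this noncanonical branch of the Wnt pathway. In many embryonic tissues the pathway acts on actomyosin and cell adhesion. A gene trap splices the start of a gene to a reporter, so some reads of the trapped gene can remain.

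Between 16093383 and 16102180 reads per library lay on genes in the Wnt5af/+; Dermo1Cre group and between 19076386 and 19814346 in the Vangl1-/- group. Nkx2-1, the transcription factor that marks lung epithelium, was at 2279, 2278 and 2150.1 normalized counts (reads divided by the size factor of the library over the 6) in Vangl1-/- replicates 1, 2 and 3 and at 3133, 2529 and 2642 in those of Wnt5af/+; Dermo1Cre, and Foxf1 and Tbx4 of the mesenchyme were present in every library. Vangl1-/- replicate 2 stood apart from replicates 1 and 3. The first principal component held 55.7% of the variance and placed Vangl1-/- replicates 1, 2 and 3 at 35.8, -6.25 and 46.0 and the Wnt5af/+; Dermo1Cre replicates at -21.7, -22.2 and -31.7. Levels also followed the length of the longest transcript. Across genes, Spearman's correlation of length with a library's deviation from the mean of the 6 was -0.597, 0.356 and -0.585 in the Vangl1-/- replicates and 0.521, 0.500 and 0.421 in the others, over the 14114 genes with a length. In Vangl1-/- replicates 1 and 3, genes of 1000 bases lay 0.32 and 0.38 above the mean on the log2 scale, and genes of 8000 bases had values of -0.32 and -0.39. Both Xist and the Y-linked Ddx3y were present in Vangl1-/- replicate 1 (1698 and 912 normalized counts) and in Wnt5af/+; Dermo1Cre replicate 2 (6954 and 976), the other replicates were high in only 1 of them, and the sex of the embryos thus differed among libraries. Some results are therefore given beside the fit with the trend on length removed, the fit without Vangl1-/- replicate 2 or both. Many genes are given from the fit of all 6 libraries alone, which does not mean that the other fits left them unchanged.

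**Figure D1:**
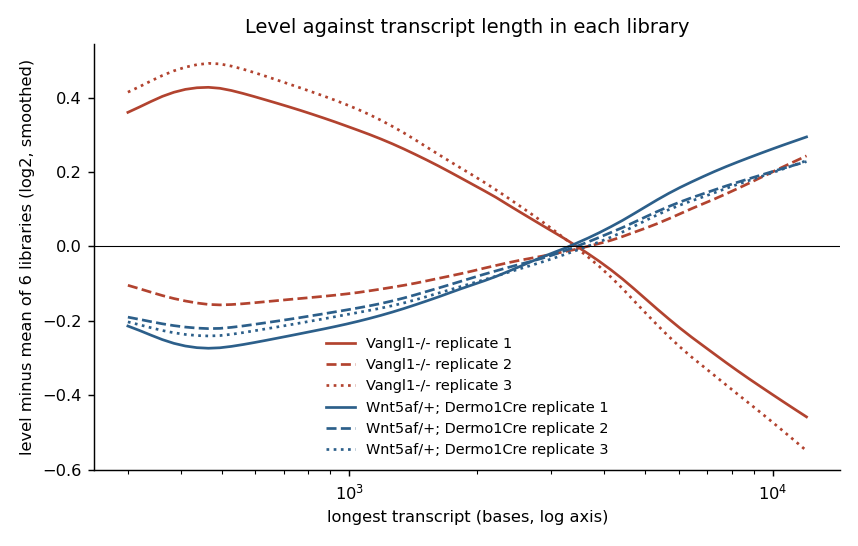
Smoothed deviation of each library from the mean of the 6 libraries (log2) against the length of the longest transcript (bases, log axis), with Vangl1-/- libraries in red and Wnt5af/+; Dermo1Cre libraries in blue. Vangl1-/- replicates 1 and 3 run downwards with length, while Vangl1-/- replicate 2 runs upwards with the 3 Wnt5af/+; Dermo1Cre libraries.

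Vangl1 was lower in every Vangl1-/- library. It was at 150.2, 201 and 105 normalized counts in Vangl1-/- replicates 1, 2 and 3, against 499.6, 532 and 535 in Wnt5af/+; Dermo1Cre lungs. The group means were 152 ± 47.9 and 522 ± 19.6 (SD, n = 3), the groups did not overlap, and the log2 difference was -1.82 ± 0.21 (SE; limma, adjusted p = 0.0181). With the trend on length removed the difference was -1.53 (adjusted p = 0.00321). Vangl1 (GRCm38 chr3:102153583-102204693, minus strand) thus kept reads in all 3 libraries labelled Vangl1-/-. Scaled over all 18 libraries, it was at 213, 246 and 218 in Vangl1-/-; Vangl2-/- lungs, at 479, 499 and 493 in Wnt5af/+; Sox9Cre lungs and at 429, 524 and 529 in Wnt5af/f; Sox9Cre lungs, so the 6 libraries of the Vangl1 experiment were below the other 12. The call was lost when any 1 Wnt5af/+; Dermo1Cre library or Vangl1-/- replicate 1 was left out (adjusted p between 0.0955 and 0.115), with differences of -1.85 to -1.80.

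Wnt5a (chr14:28504750-28527448, plus strand) did not pass the test, and its Vangl1-/- libraries disagreed with each other. The levels were 202, 486 and 193 in Vangl1-/- replicates 1, 2 and 3 and 513, 464 and 523 in Wnt5af/+; Dermo1Cre lungs, with a log2 difference of -0.90 ± 0.32 (SE, adjusted p = 0.114). Replicates 1 and 3 were below all Wnt5af/+; Dermo1Cre libraries, and replicate 2 lay within their range. Without Vangl1-/- replicate 2 the difference was -1.33 (adjusted p = 1.26e-05), and with the trend on length removed from all 6 libraries it was -0.58 (adjusted p = 0.136). Twist2 (chr1:91801461-91848028, plus strand), the transcription factor whose gene holds Dermo1Cre, was at 491, 438 and 487 in Vangl1-/- and at 346, 321 and 259.6 in Wnt5af/+; Dermo1Cre lungs. The groups did not overlap, and the log2 difference of 0.62 ± 0.13 (SE) had an adjusted p of 0.0592. It passed without Vangl1-/- replicate 2 (0.67, adjusted p = 0.00139), a fit in which 51.6% of all genes passed. It also passed once the trend on length was removed (0.51, adjusted p = 0.0442) and between the mutant libraries of the 2 experiments (0.91, adjusted p = 0.0018). Scaled over all 18 libraries, Twist2 was highest in Vangl1-/- lungs (485, 431 and 481), against 339, 315 and 258 in Wnt5af/+; Dermo1Cre lungs. Other lungs without Dermo1Cre had 340, 351 and 338 (Vangl1-/-; Vangl2-/-), 396, 341 and 323 (Wnt5af/+; Sox9Cre) and 377, 334 and 357 (Wnt5af/f; Sox9Cre). Vangl2, of which the Vangl1 crosses carried floxed alleles, was at 256, 373 and 309.9 and 385, 374 and 329, and these ranges overlapped (adjusted p = 0.329).

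**Figure D2:**
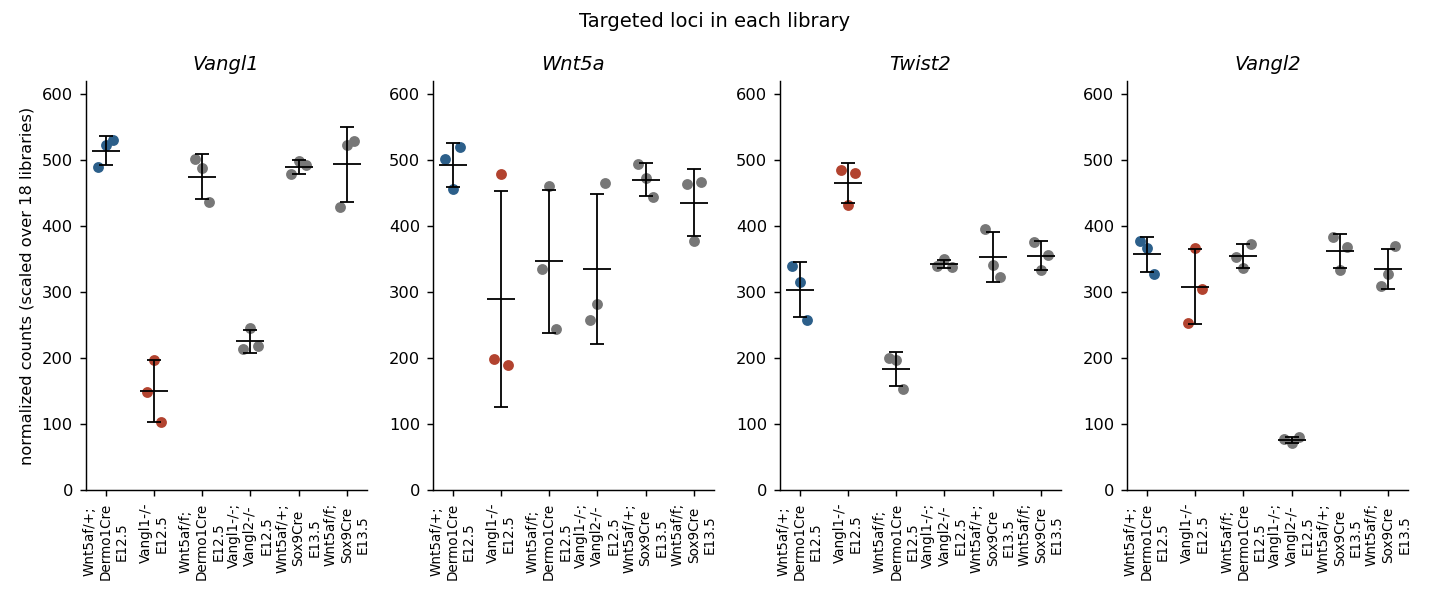
Normalized counts of Vangl1, Wnt5a, Twist2 and Vangl2 in each of the 18 libraries, scaled over all of them, by genotype and stage; points are libraries and bars are the mean and SD of 3. Vangl1 is low in both genotypes of the Vangl1 experiment, Wnt5a is lowest in Vangl1-/- replicates 1 and 3 (199 and 190.3) and also low in some mutant libraries, and Twist2 is lowest in Wnt5af/f; Dermo1Cre lungs.

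Of 14241 genes tested, 198 differed between the groups at an adjusted p under 0.05, which is 1.39% of them. Of these, 89 (0.625%) were higher and 109 (0.765%) lower in Vangl1-/- lungs, and the higher share among the calls was 44.9%. The median difference of all genes tested was 0.00, with 7155 above 0 and 7086 below. Many more genes had groups that did not overlap (5003, or 35.1%), and 4437 had an unadjusted p under 0.05. With the trend on length removed, 686 of 14114 genes passed (4.86%), and 169 of the 198 were among them. Without Vangl1-/- replicate 2, 7344 genes passed (51.6%), all 198 included. Leaving out any other single library left between 4 and 20 genes. Using the values as deposited, with each experiment scaled on its own, moved the median of all genes to 0.22, and 94.8% of 4424 calls were then higher in Vangl1-/- lungs. Each adjusted p below therefore rests on the spread of all 6 libraries together. With 3 libraries against 3 an exact permutation test of 1 gene cannot go below a two-sided p of 0.1.

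The largest fall of a called gene was that of Nr1h5, a nuclear receptor gene that lies 0.786 Mb from Vangl1 on chromosome 3. It had 0, 0 and 1 reads in Vangl1-/- replicates 1, 2 and 3, against 198, 196 and 307 in Wnt5af/+; Dermo1Cre lungs, where the normalized counts were 216, 212 and 325. Over the groups the level in Wnt5af/+; Dermo1Cre lungs was 815 times that in Vangl1-/- lungs (exact 95% interval 146 to 32251, counting error only; adjusted p = 0.000211). Sycp1, a component of the synaptonemal complex of meiosis, lies 0.665 Mb from Vangl1 and had 10, 2 and 0 reads against 65, 45 and 58, a ratio of 16.3 (9.08 to 32.1; adjusted p = 0.0445). Both were nearly absent from the Vangl1-/- group, and Nr1h5 was also at 2.07, 122 and 1.04 in the Wnt5af/+; Sox9Cre lungs, which carry no Vangl1 trap. Sycp1 was at 25.9, 69.6 and 47.8 in those lungs and at 0, 0 and 0 in Vangl1-/-; Vangl2-/- lungs (scaled over all 18 libraries). These 2 genes and Vangl1 were 3 calls among the 5 genes tested in that stretch of chromosome 3. Among the 69 genes tested within 5 Mb of Vangl1, other than Vangl1, they were the only calls (2.90%), and among 188 within 10 Mb, 3 were called (1.60%), all lower. The third was Cym, the milk-clotting protease chymosin, at 118, 146 and 122 against 427, 357 and 382 (log2 difference -1.59 ± 0.13, SE; adjusted p = 0.00523). Over the whole of chromosome 3, 25 of 707 genes passed (3.54%), 8 higher and 17 lower. This share was above that of each other chromosome, the next being 2.26% of 442 genes on chromosome 16. With the trend on length removed the share was 6.65%, below the 7.45% of chromosome 14. Beyond 10 and up to 20 Mb from Vangl1 8 of 163 genes passed, and between 20 and 50 Mb 8 of 204, so the calls were spread along the chromosome. Within 5 Mb of Wnt5a 1 of 63 genes passed, Smim4, a small membrane protein gene (134, 96.7 and 144 against 49, 59.6 and 57.2; 1.15 ± 0.20, adjusted p = 0.0433). Within 5 Mb of Twist2 1 of 54 passed, 2310007B03Rik (11.5, 18 and 19.5 against 53.3, 49.9 and 74.2; -1.81 ± 0.28, adjusted p = 0.037). With the trend on length removed, 3 genes passed within 5 Mb of Vangl1 (4.35%), 5 near Wnt5a (7.94%) and 4 near Twist2 (7.41%), so the share near Vangl1 was then the lowest of these loci and below the 4.86% of all genes.

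**Figure D3:**
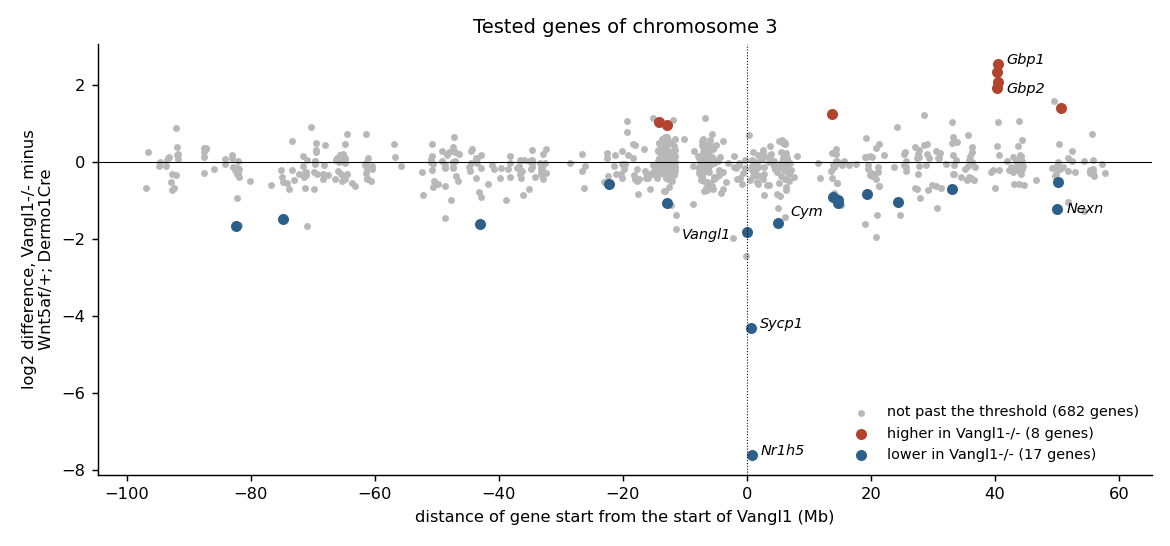
Log2 difference (Vangl1-/- minus Wnt5af/+; Dermo1Cre) of each of the 707 tested genes of chromosome 3 against the distance of its start from the start of Vangl1 (Mb), with called genes in red (higher) and blue (lower). Nr1h5 and Sycp1 lie beside Vangl1, and the 4 Gbp genes that rose lie about 40 Mb away.

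A cluster of guanylate-binding proteins, the interferon-inducible GTPases of antimicrobial defence, rose together on chromosome 3 (chr3:142493978-142638008). Gbp1 was at 276, 206 and 267 in Vangl1-/- lungs and at 34.8, 59.6 and 32.8 in Wnt5af/+; Dermo1Cre lungs (log2 difference 2.57 ± 0.25, SE; adjusted p = 0.00821). Gbp2 was at 547, 371 and 561 against 108, 128 and 108 (2.08 ± 0.18, adjusted p = 0.00523). Both genes were named by a rule that required groups without overlap, which 35.1% of all genes tested had. Their neighbours Gbp3 (1.93, adjusted p = 0.00803) and Gbp5 (2.34, adjusted p = 0.0181) rose too, so that 4 of the 5 genes tested in the cluster passed, and Gbp7 did not (0.42, adjusted p = 0.15). The cluster was singled out after its values were seen, and reads of such similar genes can be assigned to the wrong copy. Of 19 tested genes of a list of interferon response and MHC class I genes, none passed, and their median difference was -0.15. Irf1, a transcription factor of the interferon response, was at 256, 252 and 233 against 239, 254 and 262, and the groups overlapped.

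The promoters of these neighbours are shown as background. The starts used here are those of RefSeq, which can differ from the gene starts used for positions elsewhere in the text. Each of the 5 has, within the 250 bases before a RefSeq start, GAAA, any 2 bases and GAAA again. This is the core of the elements that interferon regulatory factors bind. Gbp7, which did not pass, has this motif too. The part of the motif in these differences was not tested. The motif was searched on both strands in windows of 250 bases before to 50 after a start (RefSeq, GRCm38.p6), and 3.44% of all 32851 such windows hold it. Each stretch of 40 bases is given 5′ to 3′ on the plus strand of chromosome 3, with the match, which is on the opposite strand, in capitals. In Gbp3 there are 2 overlapping matches in 1 of its 2 windows, and RefSeq names the deposited Gbp1 Gbp2b.
Gbp5 (chr3:142496754-142496793): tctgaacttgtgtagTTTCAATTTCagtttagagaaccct
Gbp7 (chr3:142530268-142530307): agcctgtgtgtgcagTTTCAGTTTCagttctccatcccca
Gbp3 (chr3:142559987-142560026): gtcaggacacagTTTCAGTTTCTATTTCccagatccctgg
Gbp1 (chr3:142594695-142594734): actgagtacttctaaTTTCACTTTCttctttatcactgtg
Gbp2 (chr3:142620589-142620628): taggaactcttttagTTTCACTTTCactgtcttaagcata

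The other largest changes were in genes of varied function. They were taken from called genes with a mean of at least 100 normalized counts in the higher group and groups that did not overlap. 2610507I01Rik, a gene known only by its clone name, was at 438, 458 and 437 in Vangl1-/- lungs and at 34.8, 22.8 and 36 in Wnt5af/+; Dermo1Cre lungs (log2 difference 3.82 ± 0.19, SE; adjusted p = 0.000211). Rpl35a, a protein of the large ribosomal subunit, was at 4481, 3075 and 5483 against 573, 551 and 505 (2.96 ± 0.19, adjusted p = 0.00123). Tagap, a GTPase-activating protein of lymphocytes, was at 83.3, 137 and 96.5 against 16.3, 17.3 and 29.7 (2.29 ± 0.29, adjusted p = 0.0226), and Dynlt1b, a dynein light chain, at 259, 241 and 211 against 47.9, 35.8 and 69.9 (2.24 ± 0.24, adjusted p = 0.0132). The lack of overlap was a condition for naming these genes, and 35.1% of all genes tested met it. Among the falls, Gpr137b-ps was at 31.6, 35.1 and 29.2 against 279.8, 264 and 276 (-3.06 ± 0.14, adjusted p = 0.000211). Its neighbour Gpr137b moved the other way (1.36, adjusted p = 0.00373), and the 2 are near-identical copies, so their split is uncertain. Scn7a, a sodium channel, was at 299, 377 and 258 against 1166, 962 and 985 (-1.75 ± 0.15, adjusted p = 0.00545). Bmp3, a secreted member of the BMP family, was at 63.2, 99.3 and 72.1 against 309, 245 and 250.01 (-1.78 ± 0.19, adjusted p = 0.0137). Gm5506 was at 129, 111 and 122 against 1192, 1266 and 424 (-2.83 ± 0.38, adjusted p = 0.026), with Wnt5af/+; Dermo1Cre replicate 3 well below the other 2. Scaled over all 18 libraries, its mean was 119 in Vangl1-/-, 106 in Vangl1-/-; Vangl2-/-, 82.4 in Wnt5af/+; Sox9Cre and 87 in Wnt5af/f; Sox9Cre lungs. The mean was 280 in Wnt5af/f; Dermo1Cre and 944 in Wnt5af/+; Dermo1Cre lungs, so the last group stood apart from the rest of the series. Rpl35a, Dynlt1b and Gm5506 have close copies elsewhere in the genome, and their counts are uncertain for that reason.

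Of 196 called genes with a position, 64 (32.7%) had another called gene within 1 Mb, against 23.01% of all 14114 tested genes with a position. One such stretch, on chromosome 4 and singled out after its values were seen, held 5 calls among 6 genes tested (Gm13139, Gm13154, 2610305D13Rik, Zfp534 and Gm13157, of which Zfp534 encodes a zinc finger protein), all lower. Gm13154 was at 4.78, 5.13 and 8.77 in Vangl1-/- lungs and at 98, 108 and 51.9 in Wnt5af/+; Dermo1Cre lungs (-3.56, adjusted p = 0.00933). Zfp534 was at 0, 0.856 and 0.975 against 23.9, 40.1 and 11.7 (-3.93, adjusted p = 0.0366). Many genes of this kind are similar in sequence, which makes their counts uncertain.

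Of 22 tested genes of the core PCP pathway, only Vangl1 passed. The median difference of the list was -0.27, against 0.00 for all genes, with 6 members above 0 and 16 below. It was -0.02 with the trend on length removed, and 0.02 when replicate 2 was the only Vangl1-/- library. Celsr1, an atypical cadherin that bridges neighbouring cells, was at 979.9, 1407 and 885 in Vangl1-/- replicates 1, 2 and 3 and at 1726, 1673 and 1514 in Wnt5af/+; Dermo1Cre lungs (-0.61, adjusted p = 0.0811). Its Vangl1-/- libraries were all below the others, and replicate 2 was the nearest. Dvl2, a Dishevelled adaptor, passed only with the trend on length removed (0.45, adjusted p = 0.0217; 0.28 and adjusted p = 0.104 before). Among 24 tested ligands, receptors and effectors of noncanonical Wnt signaling, Gpc4, a glypican that binds Wnt ligands at the cell surface, was the only call. It was at 321, 409 and 298 against 612, 538 and 573, and it fell with or without the trend on length (-0.75 ± 0.14, SE, adjusted p = 0.0485; -0.85, adjusted p = 0.0222). The list had a median difference of -0.22 (-0.08 with the trend removed).

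None of the 25 tested ligands, targets and antagonists of canonical Wnt signaling passed (median -0.02). The smallest p was that of Lgr5, an R-spondin receptor, at 64.1, 88.1 and 76 against 135, 129 and 112 (-0.72, adjusted p = 0.0642). Axin2, a feedback inhibitor induced by β-catenin, was at 1022, 1123 and 944 against 1338, 1221 and 1163 (-0.27, adjusted p = 0.128), and the values of Lef1, a transcription factor that binds β-catenin, overlapped (1209, 1117 and 1122 against 1237, 1294 and 1099.6, adjusted p = 0.623). Of 28 tested Fgf, Hedgehog and Bmp branching signals, 2 rose and 1 fell (median -0.11). Etv4, a transcription factor induced by Fgf signaling in distal buds, rose from 415, 478 and 413 in Wnt5af/+; Dermo1Cre lungs to 860.3, 620.3 and 804 in Vangl1-/- lungs (0.80 ± 0.14, SE; adjusted p = 0.0461). Id3, a target of Bmp signaling, rose from 1837, 1821 and 1667 to 3595, 2562 and 3319 (0.82 ± 0.13, adjusted p = 0.0379). The receptor Fgfr2 fell (-0.57, adjusted p = 0.0498). With the trend on length removed all 3 still passed, as did Fgf7, Hhip and Bmp5, each lower.

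Of 20 tested markers of the lung epithelium 2 fell and none rose, and the median difference was -0.06. Once the trend on length was removed, 6 passed as lower and 0 as higher (median -0.18). Of all 14114 genes in that fit, 370 passed as lower and 316 as higher. Without Vangl1-/- replicate 2, 6 passed as lower and 6 as higher, in a fit where 51.6% of all genes passed. Sftpc, the surfactant protein of distal buds, was at 775, 557 and 586 in Vangl1-/- lungs and at 1503, 1205 and 1270.2 in Wnt5af/+; Dermo1Cre lungs (-1.06 ± 0.15, SE; adjusted p = 0.0319). Cdh1, which encodes E-cadherin of epithelial junctions, was at 1499.5, 1575 and 1556 against 2363, 2326 and 2174 (-0.57 ± 0.08, adjusted p = 0.0366). In both genes every Vangl1-/- library, replicate 2 included, was below every Wnt5af/+; Dermo1Cre library. Sox9, of the distal tips, was at 1370.3, 1295 and 1293 against 1791, 1833 and 1698 and missed the threshold (-0.43, adjusted p = 0.0527) until the trend was removed (-0.35, adjusted p = 0.0327). Foxa2, a transcription factor of the airway, overlapped between groups (742, 553 and 743 against 673, 645 and 614, adjusted p = 0.759), and Krt8 and Krt18, keratins of simple epithelia, had differences of 0.11 and 0.05. The summed level of the 20 markers was 25022, 20467 and 24437 in Vangl1-/- and 26448, 25533 and 24340.5 in Wnt5af/+; Dermo1Cre lungs. In bulk RNA fewer cells of a type and less RNA per cell cannot be told apart.

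None of 18 mesenchymal markers passed (median -0.16), and their summed level in Vangl1-/- lungs was 85853, 138972 and 70065, so replicates 1 and 3 were below and replicate 2 within the range of Wnt5af/+; Dermo1Cre lungs (131794, 132920.0 and 146822). All 12 smooth muscle markers had a difference below 0, with a median of -0.52 (-0.60 with the trend removed and -0.37 with replicate 2 as the only Vangl1-/- library). Mylk, the myosin light chain kinase, was the 1 call (3993, 5288 and 4216 against 7659, 6752 and 7062; -0.68 ± 0.12, SE; adjusted p = 0.0495), and it missed the threshold with the trend removed (adjusted p = 0.0508). Wnt5af/+; Dermo1Cre replicate 3 also had the highest sum of 13 cardiomyocyte markers: it was 1484, 7204 and 21894 in replicates 1, 2 and 3 of that group and 1764, 1555 and 4990.2 in those of Vangl1-/-. None of the 10 cardiomyocyte markers tested passed, 10 of 10 being below 0, and the part of heart tissue in the smooth muscle result was not tested. Of 14 endothelial markers, Tek, the angiopoietin receptor, fell (926, 1019.9 and 910.3 against 1435, 1336 and 1485; -0.58 ± 0.09, SE; adjusted p = 0.0379), and with the trend on length removed Pecam1, Cdh5 and Kdr fell as well. Among 7 mesothelial markers, Upk1b, a uroplakin, rose (287, 230.2 and 289 against 98, 133 and 146; 1.10 ± 0.18, adjusted p = 0.0379). The mesothelial list as a whole did not rise: its median was 0.05, with 4 members above 0 and 3 below. With the trend on length removed that median was -0.10. Of 12 macrophage markers, only Ptprc, which encodes the CD45 of all white blood cells, passed (35.4, 43.6 and 35.1 against 75.1, 73.7 and 105; -1.12, adjusted p = 0.0498). Csf1r, the receptor that defines macrophages, had a difference of -0.36 (adjusted p = 0.105). The macrophage list as a whole did not fall: its median was -0.004, with 6 members above 0 and 6 below. No marker of neurons (15 tested), glia (7), cartilage (11), skeletal muscle (1) or neighbouring organs (6) passed. Of the neuronal markers, Nefm, a neurofilament, came nearest (93.8, 119.8 and 129.6 against 193, 195 and 254, adjusted p = 0.0532), and of the glial markers Ednrb, an endothelin receptor (-0.47, adjusted p = 0.0675). In the lists of skeletal muscle, cardiomyocytes and neighbouring organs the smallest adjusted p was that of Myog (0.787), of the calcium channel Ryr2 (0.0953) and of the liver apolipoprotein Apoa1 (0.15). With the trend on length removed, Nefm and Ednrb passed as lower.

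Among 7 tested red blood cell genes of the list, 1 globin passed. Hbb-bh1, a globin of primitive, yolk-sac-derived red cells, was at 770.3, 429 and 898 in Vangl1-/- replicates 1, 2 and 3 and at 160.01, 227 and 219 in Wnt5af/+; Dermo1Cre lungs (1.74 ± 0.27, SE; adjusted p = 0.0373). Vangl1-/- replicate 2 was the lowest of its group and still above the other group. The other embryonic globins, Hbb-y (0.31, adjusted p = 0.338) and Hba-x (0.68, adjusted p = 0.0971), did not pass, and the remaining 4 of the 7 tested genes had differences between -0.35 (Alas2) and -0.01 (Slc4a1). Hbb-bh1 was at 156, 251 and 226 in Wnt5af/+; Sox9Cre lungs, a day later. The list did not hold Beta-s, an adult beta globin that was added after its values were seen and whose reads are hard to tell from those of the other adult copy. Beta-s fell, the opposite direction to Hbb-bh1. It was at 8066, 6289.6 and 7450.2 in Vangl1-/- lungs and at 12032, 11685 and 11916 in Wnt5af/+; Dermo1Cre lungs (-0.72 ± 0.11, SE; adjusted p = 0.0373), and the groups did not overlap. The difference was -1.18 with the trend on length removed (adjusted p = 0.00183) and -1.68 between the mutants (adjusted p = 0.000206).

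All 42 tested extracellular matrix genes had a difference below 0, but only 1 passed. The median was -0.71, against 0.00 for all genes. It was -0.42 with the trend on length removed and -0.13 with replicate 2 as the only Vangl1-/- library. Without replicate 2, 40 of the 42 passed as lower (median -0.98). In that fit 3531 of all 14241 genes tested passed as lower, and 51.6% passed in either direction. The summed level of the list showed the split: it was 167500.0, 288437 and 128872 in Vangl1-/- replicates 1, 2 and 3 and 288227, 285810.0 and 310305 in Wnt5af/+; Dermo1Cre lungs, so replicate 2 lay within the range of the other group. Fmod, a collagen-binding proteoglycan, was the 1 call and held with and without the trend (3092, 3096 and 2490.2 against 4898, 4690.4 and 4699; -0.73 ± 0.11, SE, adjusted p = 0.0367; -0.76, adjusted p = 0.0092). Fn1, fibronectin, was at 5439, 11314 and 4331 against 10796, 12416 and 14196 (-0.95, adjusted p = 0.105), with replicate 2 inside and replicates 1 and 3 below the range of Wnt5af/+; Dermo1Cre lungs, and Lama1, a laminin of the epithelial basement membrane, was at 408, 628 and 339 against 549.7, 549 and 486 (adjusted p = 0.425). Of 37 integrin and focal adhesion genes, Itga6, a laminin receptor subunit, fell (964, 1410.0 and 963 against 1980.0, 1849.9 and 2005; -0.83 ± 0.15, SE; adjusted p = 0.0495). Ptk2, which encodes focal adhesion kinase, had overlapping levels (2259, 2347 and 2326 against 2325, 2418 and 2409; -0.05 ± 0.08, adjusted p = 0.71). Of 33 actomyosin genes, Myh14, a nonmuscle myosin heavy chain, fell (168, 234 and 228 against 414, 426 and 376; -0.96 ± 0.15, adjusted p = 0.0373), and Cfl1, the actin-severing protein cofilin, missed the threshold (31808, 24333 and 32636 against 20752, 20709 and 20003; 0.52, adjusted p = 0.0753). The medians of the 2 lists were -0.28 and 0.03.

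Genes of short transcripts lay above the mean of the 6 libraries in Vangl1-/- replicates 1 and 3 only. In replicate 2 genes of 1000 bases lay below it (-0.13 on the log2 scale). Of 79 cytosolic ribosomal genes 74 had a difference above 0 and 2 passed (median 0.55). Over all 14241 genes tested, 7155 were above 0 and 89 passed as higher. With the trend on length removed, 316 of all 14114 genes passed as higher and 370 as lower. The median of the ribosomal list was 0.19 with the trend on length removed, when 10 passed as higher. It was 0.04 with replicate 2 as the only Vangl1-/- library. Beside Rpl35a, Rps12 of the small subunit rose (8702, 5641 and 10107 against 3659.7, 3781 and 3885; 1.07 ± 0.20, SE; adjusted p = 0.0495). Of 74 nuclear genes of the respiratory chain, 72 were above 0 and 3 passed (median 0.42), while with the trend removed 10 passed as higher and 5 as lower (median 0.08). The ATP synthase subunits Atp5l and Atp5k rose in both fits: Atp5l was at 2388, 1576 and 2599 against 852, 863 and 904 (1.29, adjusted p = 0.0294) and Atp5k at 728, 477 and 840.1 against 281, 293 and 309 (1.17, adjusted p = 0.0412). Of 9 host genes of small nucleolar RNAs 3 passed as higher (Snhg4, Snhg6 and Snhg12, median of the list 0.47), and with the trend removed Snhg6 and Snhg12 did not pass (median -0.16), while Snhg4 had no transcript length and could not be tested. Snhg4 was at 382, 364 and 393 against 232, 250.3 and 224 (adjusted p = 0.0367) and Snhg12 at 419, 339.7 and 351 against 224, 233 and 229.9 (adjusted p = 0.0433). Of 10 nuclear noncoding RNAs and of 20 imprinted genes 1 passed, Mirg, a noncoding RNA that is on both lists (403, 434 and 422 against 283, 273 and 278; 0.59 ± 0.10, adjusted p = 0.0379).

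The remaining lists held few calls. Of 23 clustered histone genes 2 fell, Hist1h2ag (-1.48, adjusted p = 0.037) and Hist1h4i (-1.10, adjusted p = 0.0379). Of 29 proliferation genes Cenpe, a motor of the kinetochore, fell (1994, 2481 and 2068 against 3578, 3403 and 3528; -0.69, adjusted p = 0.0367), with a median of 0.11 for the list, and it missed the threshold with the trend on length removed (adjusted p = 0.0526). Egr1, an immediate early transcription factor, fell (-0.65, adjusted p = 0.0498), alone among 19 immediate early and heat shock genes. No gene passed among 27 of glycolysis and hypoxia, where Aldoa, an aldolase, came nearest (0.47, adjusted p = 0.0611), or among 20 Hox genes, where Hoxb6 did (0.93, adjusted p = 0.0527). Oasl2 had the smallest p of the interferon list (-1.08, adjusted p = 0.123). Nnt, a mitochondrial redox enzyme whose gene is partly deleted in C57BL/6J mice, was present in all 6 libraries (1547, 1208 and 1744 against 1960.5, 2293 and 2159; -0.52, adjusted p = 0.0796). None of the 5 genes that mark embryo sex passed, the Y-linked Eif2s3y having an adjusted p of 0.313, but their levels varied widely within groups. Xist was at 1698, 6.84 and 61.4 in Vangl1-/- lungs against 20164, 6954 and 20.1. Ddx3y was at 912, 1432 and 1451 against 1.09, 976 and 1247. Sex was thus not balanced between the groups, and its part in other differences was not tested. None of the 15 listed mitochondrially encoded genes had a row in the tables.

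**Figure D4:**
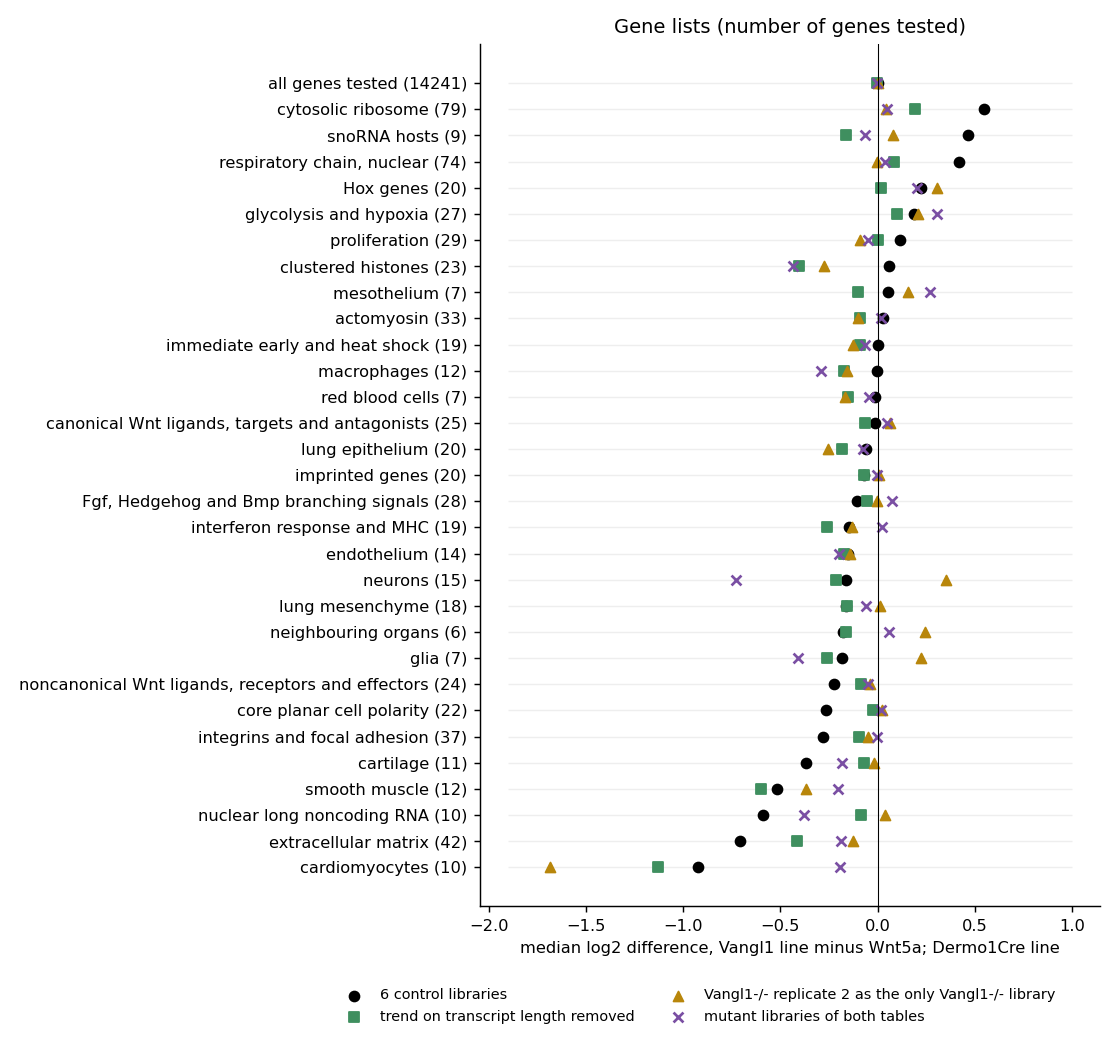
Median log2 difference of each list with at least 5 tested genes other than the sex genes (numbers of tested genes in brackets) in the 6 control libraries (circles), with the trend on transcript length removed (squares), with replicate 2 as the only Vangl1-/- library (triangles) and between the mutant libraries of both experiments (crosses). The ribosomal, respiratory chain and extracellular matrix lists lie away from 0 in the 6 libraries and nearer to it in the other 3 fits.

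The mutant libraries of the same experiments give a comparison that shares no library with the controls but the same confounded differences between the lines, and in which Vangl2 is also lost and Wnt5a has both alleles floxed. There 2225 of 14305 genes passed (15.6%), 1203 higher and 1022 lower in Vangl1-/-; Vangl2-/- lungs. Of the 198 genes called in the controls 196 were tested, 195 of them with the same direction, and 153 (78.1%) passed in that direction. Over all 14113 genes tested in both, 69.6% had the same direction. Of the 167 genes called in the controls with and without the trend on length and tested in the mutants with the trend removed there too, 166 had the same direction and 135 passed. Nr1h5 was at 0, 0 and 0.888 in Vangl1-/-; Vangl2-/- lungs and at 73.8, 375 and 267 in Wnt5af/f; Dermo1Cre lungs (scaled over 18 libraries), and the difference of Gbp1 was 5.10 (adjusted p = 0.00945), larger than in the controls, with 1.07, 66.1 and 3.19 in the Wnt5af/f; Dermo1Cre libraries. Sftpc (-1.23, adjusted p = 0.00158), Upk1b (1.49, adjusted p = 0.000766), Hbb-bh1 (1.65, adjusted p = 0.00268) and Rpl35a (2.77, adjusted p = 0.000271) passed in the same direction in both comparisons, and Cdh1 (-0.30, adjusted p = 0.0532) and Id3 (0.37, adjusted p = 0.0779) did not pass between the mutants, although Cdh1 did with the trend on length removed (-0.29, adjusted p = 0.0460). The difference between the 2 comparisons was not tested. The medians of the ribosomal list (0.05) and of the respiratory chain list (0.04) were close to 0 in the mutants, and that of the extracellular matrix list was -0.19.

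**Figure D5:**
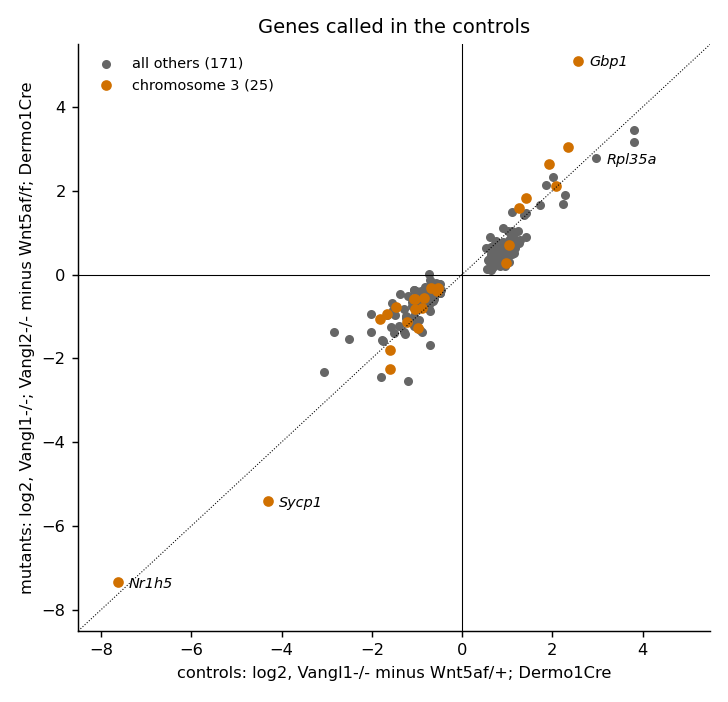
Log2 difference between the mutant libraries (Vangl1-/-; Vangl2-/- minus Wnt5af/f; Dermo1Cre) against that between the controls (Vangl1-/- minus Wnt5af/+; Dermo1Cre) for the 196 genes called in the controls and tested in both, with the 25 genes of chromosome 3 in orange and equal values on the dotted line. All but 1 of the 196 have the same sign in both comparisons.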

How the data were processed

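RNA of whole embryonic lungs was sequenced in bulk, and the authors deposited a table for each of 3 experiments. The labels name Trim Galore, HISAT2, featureCounts and DESeq2 and the build mm10, without versions. The deposited values are a signal: counts per gene that the authors divided by the size factor of each library within its table. All values were whole multiples of 1 read (tolerance 0.001 reads), so reads were recovered. The authors' own columns of log2 fold changes and p-values were not used. Of 23420 names per table, 27 were date-like and were dropped, and 98.1% of the 23393 others were paired with GENCODE M21 (1244 through an older symbol). No strand setting for the counting was found in the sources used here.

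The 6 control libraries were scaled together by median-of-ratios size factors, and the test took genes that reached 10 normalized counts in 3 or more of these libraries. It was made by limma (version 3.58.1, R 4.3.3) with a mean-variance trend on log2 values with a pseudocount of 1, so differences of low genes are understated. P-values were adjusted over all genes tested by the Benjamini-Hochberg method at 0.05. The labels do not say which embryos made each library. Sex-linked genes differed within each group, so its libraries were not all made from the same tissue, and p-values cover the spread between these libraries. The trend on the longest transcript was removed per library by lowess (span 0.3). edgeR (4.0.16) and DESeq2 (1.42.0) were run on the recovered reads. The procedure was tested on simulated data. Libraries of a group differed by more than sampling noise. The members and the 35 lists were chosen with earlier results of these data known. The genes named are the targeted genes, the 6 largest called rises and falls with at least 100 normalized counts in the higher group and no overlap, up to 2 called genes per list (else the one with the smallest p), up to 3 called genes within 5 Mb of Vangl1, Wnt5a and Twist2, and 7 genes that the study discusses; others are examples chosen after their values were seen. Figures were drawn with matplotlib (3.10.9). Some results are not reported here.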

Additional observations from a re-analysis of the deposited data

How the results depend on the processing

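The number of genes that differed depended strongly on the settings. In place of 198, it was 2079 with DESeq2 (1158 higher, 55.7%), 4424 with the values as deposited, 131 with no filter on low values, 15 at an adjusted p under 0.01, 12 for a change over 1.5-fold by treat, 3955 when the 12 libraries at E12.5 shared one spread, 2225 with the mutant libraries in place of the controls, 686 with the trend on transcript length removed, and 423 with Vangl1-/- replicates 1 and 3 left out together. Leaving out 1 library gave between 4 and 7344. Another pair of fits was added after the data were seen: 4235 genes passed without Vangl1-/- replicate 2 and with the trend removed, and 2577 between the mutants with the trend removed. edgeR (205), TMM scaling (172), quantile normalization (282), a minimum of 50 normalized counts (222) and a pseudocount of 8 (200) stayed within 1.5 times of 198. Of the 198 calls, those tested kept their direction in every fit among the control libraries except the one added after the data were seen, where 195 of 196 did.

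With the replicate number as a block 76 genes passed, 65 of them among the 198, and 194 with the trend on length removed as well. Deviations of same-numbered libraries correlated at 0.170, -0.164 and -0.0386, so the numbers did not pair the libraries, and the labels give no pairing. Only some libraries correlated best with their own number.

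Vangl1 was lower in Vangl1-/- lungs in every fit listed here. It missed the threshold at an adjusted p under 0.01 (-1.82) and for a change over 1.5-fold by treat (-1.82), and leaving out 1 library gave between -2.04 and -1.58. Wnt5a passed without Vangl1-/- replicate 2 with the trend removed (-0.87), and leaving out 1 library gave between -1.33 and -0.67. Twist2 passed with DESeq2 (0.61), the values as deposited (0.84), the 12 libraries together (0.61), the trend removed (0.51), the mutants (0.91), the mutants with the trend removed (0.89) and without Vangl1-/- replicate 2 with the trend removed (0.52), and leaving out 1 library gave between 0.50 and 0.71. Lama1, not called in the controls, was higher in the mutants (0.34, and 0.38 with the trend removed). The causes were not tested. At 3 libraries a group the spread between libraries, not depth, limits these comparisons, except for genes with few reads such as Sycp1 and Nr1h5.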

Other observations

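Some genes with large differences between the 2 control groups also varied among libraries of 1 genotype elsewhere in the series (levels scaled over all 18 libraries). Nr1h5 was at 0, 1.05 and 1.07 in Wnt5af/f; Sox9Cre replicates 1, 2 and 3 and at 2.07, 122 and 1.04 in those of Wnt5af/+; Sox9Cre, where replicate 2 stood alone. Gbp1 was at 106, 6.3 and 174 in Wnt5af/f; Sox9Cre lungs and at 149, 155 and 116 in Wnt5af/+; Sox9Cre lungs, all below the Vangl1-/- libraries (272, 203 and 263). Rpl35a was at 1460.2, 1226 and 496 in Wnt5af/+; Sox9Cre lungs, so replicate 3 was near the Wnt5af/+; Dermo1Cre level (561, 541 and 502) and replicates 1 and 2 lay between that and the Vangl1-/- level (4423, 3029 and 5408).

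Other called genes had levels in the E13.5 Wnt5a libraries that were near those of Wnt5af/+; Dermo1Cre lungs. Gpr137b-ps was at 308, 279 and 264 in Wnt5af/+; Sox9Cre lungs, 274, 259.8 and 274 in Wnt5af/+; Dermo1Cre lungs and 31.2, 34.6 and 28.8 in Vangl1-/- lungs, and it was at 33.3, 39 and 138 in Vangl1-/-; Vangl2-/- lungs, where replicate 3 stood apart. Hmga2, a chromatin protein that is high in early embryos, was at 7516, 7177 and 7776 in Vangl1-/- lungs, 4813, 5379 and 4499 in Wnt5af/+; Dermo1Cre lungs and 4989, 5395 and 5000.0 in Wnt5af/+; Sox9Cre lungs, which are 1 day older. These genes were singled out after their values were seen, and no test was made across stages.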
